A study of Homo sapiens with 12 samples.

Results

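The genes described here form the upper part of the epidermal growth factor (EGF) receptor pathway: the ligands HBEGF, AREG, EREG and TGFA, the receptors EGFR, ERBB2 and ERBB3, and the feedback inhibitors ERRFI1, SPRY2 and SPRY4. They were read in HK-2 cells, an immortalised human line from proximal tubule epithelium of the kidney, after exposure to the compound labelled CdCl. Each gene was represented by the probe set that carried its symbol alone and had the highest mean over the 12 arrays. Of the 10 genes, 9 had such a probe set, and 8 passed the filter on low values and were tested among 10683 genes of 19775. AREG had no probe set with a single symbol in the annotation used. ERBB3 had 5, and all of them lay under 4 on the log2 scale on all 12 arrays.

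The study holds 4 groups of 3 biological replicates with 1 array each: cells given CdCl for 12 h, control cells at 12 h, cells given CdCl for 48 h and control cells at 48 h. The controls received vehicle, and neither the labels nor the files give the dose of CdCl. Cells of all 4 groups were maintained in a medium with 10 ng/ml recombinant human EGF, together with hydrocortisone and insulin, and treatment began 24 h after seeding, at about 90% confluency. The receptor's ligand was thus part of the culture medium of CdCl and control cells alike. HK-2 is a single line, and the p values measure the spread between its cultures.

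Signals are log2 GCRMA values, and the number of arrays limits their precision. Array medians lay between 2.97 and 3.04, and arrays of the same group correlated at 0.9965 to 0.9982 over probe sets, against 0.9731 to 0.989 between groups. The 4 epithelial keratins KRT7, KRT8, KRT18 and KRT19 lay over 4 on all 12 arrays, at 5.62 to 12.31, as did 3 of 4 renal lineage genes, PAX8, CDH6 and CDH16, while PAX2 lay under 4 at 2.83 to 3.07. At 48 h CDH6 averaged 8.63 in CdCl and 10.87 in control cells, and CDH16 averaged 5.13 in CdCl and 8.21 in control cells. All 6 markers of the mature proximal tubule that were measured, among them LRP2, CUBN and AQP1, lay under 4 on every array, at 2.59 to 3.38. All leukocyte, endothelial and podocyte markers measured also lay under 4 throughout. Of the fibroblast markers COL1A1 lay over 4 on all arrays, at 7.05 to 7.99, with COL1A2 and PDGFRB under 4, and of the distal markers AQP2 lay at 4.09 to 4.56, with CALB1 under 4. The part of these cell types in the results was not tested.

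EGF-family ligands are made as membrane-anchored precursors and are released by metalloproteases of the ADAM family. A released ligand binds EGFR, which pairs with another EGFR or with ERBB2, a family member with no known ligand of its own, and signals through the RAS-ERK and PI3K-AKT cascades. The pathway is held in check by proteins it induces: ERRFI1 (MIG6) binds the EGFR kinase domain and blocks it, and Sprouty proteins act on the RAS-ERK cascade. In renal tubule epithelium, EGF receptor signalling is known for its part in regeneration after injury.

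Of the 8 genes tested, HBEGF, EREG and ERRFI1 rose at 12 h of CdCl and ERBB2 fell, while at 48 h HBEGF, TGFA, EGFR and SPRY2 rose and ERBB2 and SPRY4 fell. The shares over all genes tested were large in the same comparisons. At 12 h, 56.4% of all genes passed the threshold, 16.7% as higher and 39.7% as lower, and 4 of the 8 genes did so (limma, Benjamini-Hochberg adjusted p under 0.05). At 48 h, 54.6% of all genes passed, 26.5% as higher and 28.0% as lower, and 6 of the 8 genes did so. The groups did not overlap in the same 4 genes at 12 h, against 66.4% of all genes, and in the same 6 genes at 48 h, against 60.0%. The number of genes that passed is thus near the background, and the sizes and time courses of the single genes are what follows. The median change of the 8 genes was 0.12 at 12 h and 0.13 at 48 h, against -0.16 and -0.02 over all genes. The array median over the tested genes differed by -0.15 between the groups at 12 h, and centring each array on it turned the shares at that time to 24.4% higher and 26.5% lower.

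HBEGF, EREG and ERRFI1 are the 3 genes that rose at 12 h, and their promoters are shown here from 250 bases before to 50 bases after the annotated start, as RefSeq gives them on GRCh38.p14. The HBEGF window lies at chr5:140346554-140346853 on the minus strand, the EREG window at chr4:74364895-74365194 on the plus strand and the ERRFI1 window at chr1:8026260-8026559 on the minus strand. Capitals mark TATANA on the gene's strand where it starts 40 to 20 bases before the start. ERRFI1 holds 3 overlapping matches, whose letters are joined in the capitals.
HBEGF: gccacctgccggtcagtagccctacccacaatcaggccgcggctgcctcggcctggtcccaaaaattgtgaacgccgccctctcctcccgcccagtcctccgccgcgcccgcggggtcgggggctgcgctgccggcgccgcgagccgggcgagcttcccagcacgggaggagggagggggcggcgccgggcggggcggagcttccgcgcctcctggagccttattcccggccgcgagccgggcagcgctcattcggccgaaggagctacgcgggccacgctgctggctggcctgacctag
EREG: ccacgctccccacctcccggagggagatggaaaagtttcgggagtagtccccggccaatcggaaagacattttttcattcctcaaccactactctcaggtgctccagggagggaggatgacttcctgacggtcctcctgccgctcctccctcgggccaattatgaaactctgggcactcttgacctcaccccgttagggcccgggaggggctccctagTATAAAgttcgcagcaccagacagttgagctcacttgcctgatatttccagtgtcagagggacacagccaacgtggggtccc
ERRFI1: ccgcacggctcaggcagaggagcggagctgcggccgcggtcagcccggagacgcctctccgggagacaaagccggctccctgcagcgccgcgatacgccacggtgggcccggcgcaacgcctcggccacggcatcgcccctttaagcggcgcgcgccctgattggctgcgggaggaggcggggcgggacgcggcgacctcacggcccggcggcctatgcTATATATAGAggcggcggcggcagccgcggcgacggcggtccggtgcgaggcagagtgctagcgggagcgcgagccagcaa
Such a TATANA was present in EREG, starting at -32, and in ERRFI1, starting at -31, and not in the same window of HBEGF. Among the 9 genes with a listed promoter it was found in AREG as well, at -29, and in 3.46% of 35116 listed promoters. This motif was added after the sequences had been seen.

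Searched on both strands of the whole 300 bases, none of these 3 promoters held an AP-1 site (TGANTCA, in 7.71% of all promoters), a cyclic AMP response element (TGACGTCA, in 1.85%), an antioxidant response element (TGACNNNGC, in 13.3%), a metal response element (TGCNCNC, in 55.9%) or a heat shock element (3 GAA units in alternating orientation with 2 bases between them, in 0.49%). The EGFR promoter held none of them either. AREG held 1 cyclic AMP response element, TGACGTCA at -65, and 2 metal response element matches. ERBB2 held 1 AP-1 match, TGATTCA at -222, TGFA held 5 metal response element matches, SPRY2 held 2, and SPRY4 held 1 of these and 1 antioxidant response element match. A match is only a run of letters, and its absence from 300 bases says nothing of sites elsewhere.

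**Figure D1:**
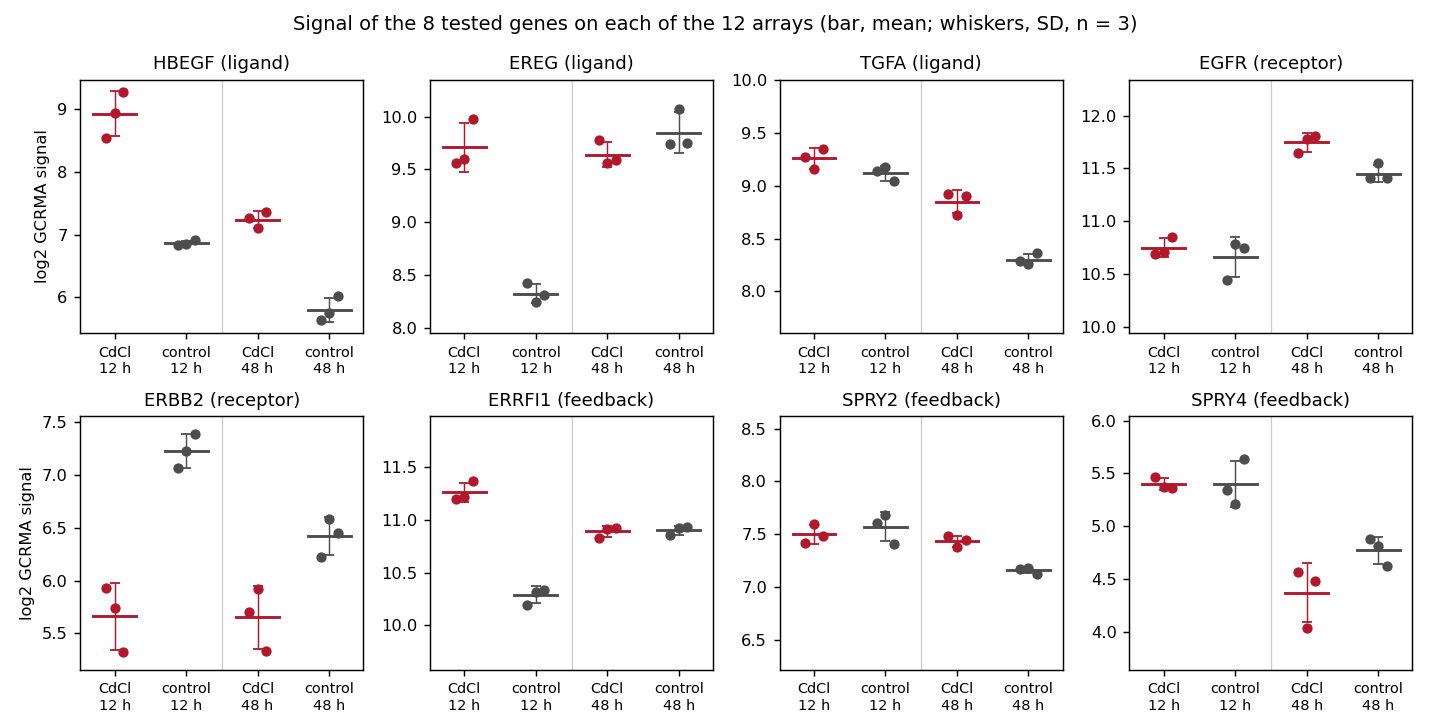
Log2 GCRMA signal (y axes, which differ between panels and do not start at 0) of the 8 tested genes on each array, by treatment and time (x axes); points are arrays, bars are means and whiskers are SD (n = 3). HBEGF is higher in CdCl than in control cells at both times, EREG and ERRFI1 are higher in CdCl than in control cells at 12 h and overlap at 48 h, and ERBB2 is lower in CdCl cells at both times.

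HBEGF, heparin-binding EGF-like growth factor, showed the largest rise of the 3 ligands tested. Its log2 signal was 8.55, 8.95 and 9.28 in CdCl cells at 12 h, against 6.83, 6.85 and 6.91 in control cells. The 48 h signal was 7.26, 7.11 and 7.36 in CdCl cells, against 5.64, 5.74 and 6.01 in control cells. The 4 groups did not overlap: CdCl cells at 12 h were highest, then CdCl cells at 48 h, then control cells at 12 h, then control cells at 48 h. HBEGF rose by 2.06 ± 0.16 (SE) at 12 h, 4.18-fold (adjusted p = 1e-06), and by 1.44 ± 0.16 at 48 h, 2.72-fold (adjusted p = 1.2e-05). Of the 10683 genes, 124 had a larger change at 12 h and 277 at 48 h. In bulk RNA of this kind, fewer cells of a type and less RNA per cell cannot be told apart.

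HBEGF had 4 probe sets, of which 2 passed the filter. The second of these gave 7.10, 7.36 and 7.80 in CdCl cells at 12 h, against 4.89, 4.78 and 4.94 in control cells, a change of 2.56 ± 0.14. At 48 h it gave 5.21, 5.35 and 5.37 in CdCl cells, while the control arrays lay under 4, at 3.49, 3.60 and 3.51. Both probe sets were therefore higher in CdCl cells at both times. The mean over all 4 probe sets, of which 2 lay under 4 throughout, changed by 1.16 at 12 h (adjusted p = 3.8e-07) and 0.80 at 48 h (adjusted p = 5.1e-06). The 12 h arrays also differed in the spiked-in poly-A controls, whose 24 probe sets averaged 7.00 ± 0.04 in CdCl cells and 6.53 ± 0.13 in control cells (SD, n = 3 each), a difference of 0.47 (exact permutation test, two-sided p = 0.1, the smallest that 3 against 3 allows). At 48 h that difference was 0.17 (exact p = 0.6). The GAPDH signal of the 3′ minus the 5′ control probe set, a sign of RNA quality, was -0.02 ± 0.03 in CdCl cells and 0.13 ± 0.09 in control cells at 12 h, a difference of -0.15 (exact p = 0.1), and that of actin differed by -0.17 (exact p = 0.3). Their part in the 12 h changes was not tested.

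EREG encodes epiregulin, which binds EGFR and ERBB4. At 12 h its log2 signal was 9.56, 9.60 and 9.98 in CdCl cells, against 8.42, 8.24 and 8.31 in control cells, with no overlap. After 48 h it was 9.78, 9.56 and 9.59 in CdCl cells, against 9.74, 10.07 and 9.75 in control cells, and the groups overlapped. EREG rose by 1.39 ± 0.13 at 12 h, 2.63-fold (adjusted p = 3.7e-06), or by 0.69 when averaged with its other probe set, which lay under 4 (adjusted p = 8.7e-06), while at 48 h its change was -0.21 ± 0.13 (adjusted p = 0.18, 95% interval -0.49 to 0.06). CdCl cells at both times and control cells at 48 h overlapped, and the control cells at 12 h stood below them. Control cells were 2.90-fold higher at 48 h than at 12 h (1.53 ± 0.13, adjusted p = 1.1e-06), whereas CdCl cells at 48 h differed from those at 12 h by -0.07 ± 0.13 (adjusted p = 0.65).

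TGFA encodes transforming growth factor alpha, an EGFR ligand. Its log2 signal at 12 h was 9.27, 9.16 and 9.35 in CdCl cells, against 9.14, 9.18 and 9.05 in control cells, with overlap. The later arrays gave 8.92, 8.72 and 8.90 in CdCl cells, against 8.29, 8.26 and 8.36 in control cells, with none. The change was 0.14 ± 0.08 at 12 h (adjusted p = 0.15) and TGFA rose by 0.55 ± 0.08 at 48 h, 1.46-fold (adjusted p = 9.8e-05). With each array centred on its median, the 12 h change became 0.29 and passed the threshold (adjusted p = 0.010), and averaged over its probe sets it was also 0.29 (adjusted p = 0.010). A second probe set, which lay under 4 on all control arrays, gave fitted changes of 0.40 ± 0.14 at 12 h (adjusted p = 0.037) and 0.21 ± 0.14 at 48 h (adjusted p = 0.24).

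AREG encodes amphiregulin, another EGFR ligand, and was not measured here for want of a probe set with that symbol alone.

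Of the receptors, EGFR was measured by 9 probe sets, 5 of which passed the filter. The one with the highest mean gave 10.69, 10.71 and 10.85 in CdCl cells at 12 h, against 10.44, 10.78 and 10.75 in control cells, which overlapped. After 48 h the same probe set gave 11.65, 11.78 and 11.81 in CdCl cells, against 11.41, 11.55 and 11.41 in control cells, with all 3 CdCl arrays above all 3 control arrays. The change was 0.09 ± 0.10 at 12 h (adjusted p = 0.44, 95% interval -0.12 to 0.31), and EGFR rose by 0.29 ± 0.10 at 48 h, 1.22-fold (adjusted p = 0.024). The 48 h call was lost without the second or the third CdCl array or the first or the third control array at that time, with adjusted p values of at most 0.076.

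The other EGFR probe sets did not give 1 answer on CdCl. Their values below come from a fit over 19005 probe sets. The one with the second highest mean gave -0.16 ± 0.09 at 48 h (adjusted p = 0.14), opposite in sign to the probe set with the highest mean, and did not differ at 12 h beyond its error (adjusted p = 0.98). The third by mean was 8.93, 8.91 and 9.03 in CdCl cells at 12 h, against 8.61, 8.73 and 8.39 in control cells, and at 48 h it was 10.37, 10.47 and 10.27 in CdCl cells, against 9.29, 9.39 and 9.33 in control cells. It rose by 0.38 ± 0.09 at 12 h (adjusted p = 0.005) and by 1.04 ± 0.09 at 48 h (adjusted p = 3.8e-06). The fourth and the fifth also rose at both times, by 0.99 ± 0.16 and 0.62 ± 0.13 at 12 h, and by 0.44 ± 0.16 and 0.43 ± 0.13 at 48 h. The EGFR response to CdCl thus depended on the probe set, from no difference beyond the error to a rise of 1.04.

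**Figure D2:**
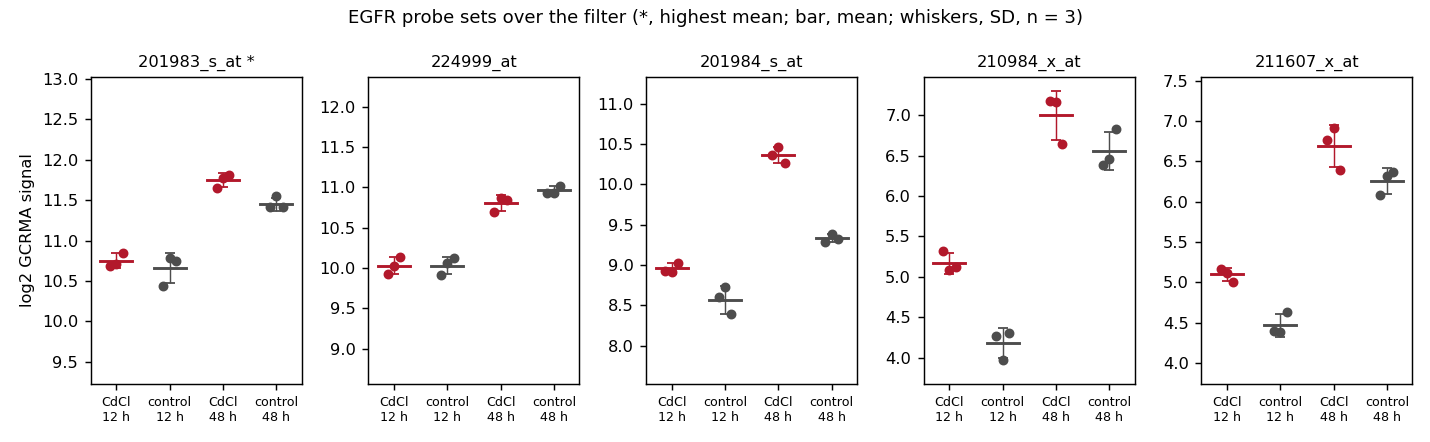
Log2 GCRMA signal (y axes of equal span, not starting at 0) of the 5 EGFR probe sets over the filter, by treatment and time (x axes); points are arrays, bars are means, whiskers are SD (n = 3), and panels run by mean from the highest (star) to the lowest. All 5 are higher at 48 h than at 12 h in both treatments, whereas CdCl stands above control at 48 h by 1.04 in the third panel, and the second panel has a difference of -0.16.

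ERBB2 (HER2), the preferred partner of the other receptors, fell at both times. Its log2 signal was 5.93, 5.74 and 5.32 in CdCl cells at 12 h, against 7.07, 7.23 and 7.39 in control cells. The 48 h values were 5.70, 5.92 and 5.33 in CdCl cells, against 6.22, 6.58 and 6.45 in control cells. No CdCl array reached a control array at either time. The change was -1.57 ± 0.18 at 12 h, 2.97-fold lower (adjusted p = 2.1e-05), and -0.77 ± 0.18 at 48 h, 1.70-fold lower (adjusted p = 0.003). Only 57 of the 10683 genes had a lower change at 12 h. ERBB2 is read from 1 of its 3 probe sets, since the other two lay under 4 on all arrays, at 1.82 to 2.20.

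ERBB3, the kinase-impaired partner of ERBB2, gave 3.19, 3.19 and 3.21 in CdCl cells at 12 h, against 3.17, 3.21 and 3.26 in control cells. The 48 h values were 3.21, 3.28 and 3.21 in CdCl cells, against 3.22, 3.10 and 3.21 in control cells. All of these lie under the filter, so no change was tested.

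ERRFI1, the feedback inhibitor of the EGFR kinase, rose at 12 h only. Its log2 signal was 11.20, 11.22 and 11.37 in CdCl cells at 12 h, against 10.19, 10.32 and 10.34 in control cells, with no overlap. After 48 h it was 10.83, 10.91 and 10.92 in CdCl cells, against 10.86, 10.92 and 10.93 in control cells, and the groups overlapped almost wholly. ERRFI1 rose by 0.98 ± 0.07 at 12 h, 1.97-fold (adjusted p = 6.4e-07), and its change at 48 h was -0.02 ± 0.07 (adjusted p = 0.87, 95% interval -0.17 to 0.14). The difference between the effects was -0.99 ± 0.10 (adjusted p = 3.3e-05).

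Neither Sprouty gene passed at 12 h. SPRY2 gave 7.42, 7.60 and 7.48 in CdCl cells at 12 h, against 7.61, 7.68 and 7.41 in control cells, and its change was -0.07 ± 0.08 (adjusted p = 0.51), or 0.08 with arrays centred. At 48 h it gave 7.48, 7.38 and 7.44 in CdCl cells, against 7.17, 7.18 and 7.12 in control cells, and rose by 0.28 ± 0.08, 1.21-fold (adjusted p = 0.012). SPRY2 thus overlapped in 3 of the groups and was lower only in control cells at 48 h.

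SPRY4 gave 5.47, 5.37 and 5.36 in CdCl cells at 12 h, against 5.34, 5.21 and 5.64 in control cells, a change of 0.00 ± 0.14 (adjusted p = 0.99). SPRY4 at 48 h was 4.57, 4.04 and 4.48 in CdCl cells, against 4.88, 4.81 and 4.62 in control cells, and fell by 0.40 on the log2 scale with an SE of 0.14, 1.32-fold lower (adjusted p = 0.032). The call was lost with no low-value filter (adjusted p = 0.080) and in the compared groups alone (0.061). Without the second CdCl array the change was -0.24 and the adjusted p 0.12, and without the first or second control array the adjusted p was 0.10 or 0.082.

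**Figure D3:**
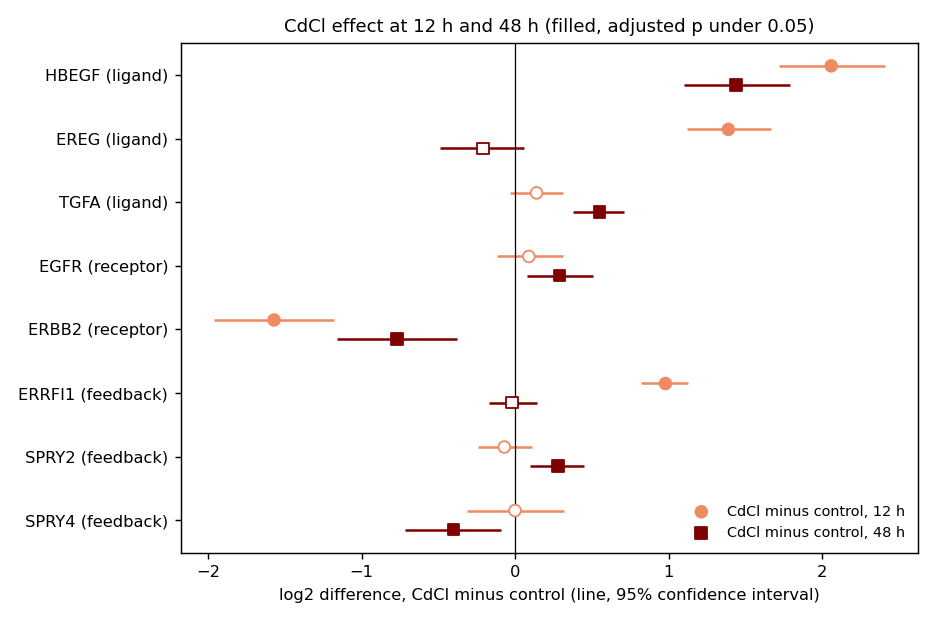
Log2 difference between CdCl and control cells (x axis) for the 8 tested genes (y axis) at 12 h (circles) and 48 h (squares), with 95% confidence intervals from limma; filled symbols have an adjusted p under 0.05. HBEGF lies to the right and ERBB2 to the left of 0 at both times, EREG at 1.39 and ERRFI1 at 0.98 pass the threshold at 12 h alone, and TGFA at 0.55, EGFR at 0.29, SPRY2 at 0.28 and SPRY4 at -0.40 at 48 h alone, though TGFA passed at 12 h with arrays centred or probe sets averaged.

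The difference between the CdCl effects at 48 h and at 12 h was tested as an interaction, which passed in 6 of the 8 genes, against 40.1% of all genes. With arrays centred it passed in 4 of the 8, all with a lower effect at 48 h, against 17.9% of all genes with a higher and 18.6% with a lower effect. EREG and ERRFI1, with -1.60 ± 0.18 (adjusted p = 6.5e-05) and -0.99 ± 0.10, had the largest differences. The ERBB2 difference was 0.80 ± 0.25 (adjusted p = 0.025), that of TGFA 0.41 ± 0.11 (adjusted p = 0.012) and that of SPRY2 0.34 ± 0.11 (adjusted p = 0.032), and leaving out 1 array removed the ERBB2 call in 4 fits and the SPRY2 call in 8. With arrays centred these 3 missed the threshold, at 0.68, 0.28 and 0.22 (adjusted p = 0.058, 0.070 and 0.13). With probe sets averaged the TGFA call was lost (0.14, adjusted p = 0.35) and EREG differed by -0.80 (adjusted p = 0.00011) and HBEGF by -0.36 (adjusted p = 0.022). HBEGF differed by -0.62 ± 0.22 (adjusted p = 0.044), a call lost in 9 of the 12 fits that left out 1 array. The library that moved the count most was the third CdCl array at 12 h, without which 3 genes passed. SPRY4, at -0.40, had an adjusted p of 0.13. With arrays centred it became 0.050 after rounding, so SPRY4 is 1 of the 4 genes counted there and lies at the threshold. EGFR differed by 0.20 (adjusted p = 0.27).

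All 8 genes also differed between the times. In control cells all 8 passed between 48 h and 12 h, 3 as higher and 5 as lower, against 56.9% of all genes (23.4% higher, 33.5% lower). The arrays of these groups did not overlap in any of the 8, against 64.6% of all genes without overlap. EREG rose 2.90-fold, EGFR 1.74-fold (0.80 ± 0.10, adjusted p = 2.9e-05) and ERRFI1 1.53-fold (0.62 ± 0.07, adjusted p = 1.6e-05). HBEGF was 2.09-fold lower at 48 h (-1.06 ± 0.16, adjusted p = 0.00012), TGFA 1.77-fold (-0.82 ± 0.08, adjusted p = 3.4e-06), ERBB2 1.76-fold (-0.81 ± 0.18, adjusted p = 0.002), SPRY4 1.55-fold (-0.63 ± 0.14, adjusted p = 0.003) and SPRY2 1.33-fold (-0.41 ± 0.08, adjusted p = 0.00098). With probe sets averaged the changes were 0.77 for EREG, -0.59 for HBEGF and -0.35 for TGFA, all still past the threshold. Control measures moved with time too. In control cells the poly-A controls averaged 6.14 ± 0.10 at 48 h and 6.53 ± 0.13 at 12 h, and the 3′ minus 5′ signal differed by -0.41 for actin and -0.13 for GAPDH (exact p = 0.1 for each of the 3, the smallest possible). Their part in the time changes was not tested. Every difference between CdCl and control cells at 48 h is thus a difference from controls that had themselves changed since 12 h.

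In CdCl cells 5 of the 8 genes passed between 48 h and 12 h, 1 as higher and 4 as lower, against 62.3% of all genes (34.7% higher, 27.6% lower). The same 5 did not overlap between these groups, against 68.0% of all genes. EGFR rose 1.99-fold (1.00 ± 0.10, adjusted p = 3.6e-06), and all 5 EGFR probe sets over the filter were higher at 48 h in both treatments, by 0.77 to 1.83 in CdCl cells and 0.76 to 2.38 in control cells. HBEGF was 3.21-fold lower at 48 h (-1.68 ± 0.16, adjusted p = 2.3e-06) and SPRY4 2.05-fold (-1.03 ± 0.14, adjusted p = 5.9e-05). TGFA fell by 0.41 (adjusted p = 0.00056) and ERRFI1 fell by 0.38 (adjusted p = 0.00057) on the log2 scale. With probe sets averaged HBEGF changed by -0.94 and TGFA by -0.20 (adjusted p = 0.047 for TGFA). ERBB2 differed by -0.01 ± 0.18 (adjusted p = 0.96, 95% interval -0.40 to 0.38), and SPRY2 differed by -0.07 ± 0.08 (adjusted p = 0.49). The poly-A controls averaged 6.31 ± 0.49 at 48 h and 7.00 ± 0.04 at 12 h in CdCl cells, a difference of -0.69 (exact p = 0.1), and the 3′ minus 5′ signal differed by -0.11 for actin (exact p = 0.6) and 0.02 for GAPDH (exact p = 0.8). The part of these in the changes was not tested. These comparisons share arrays with those between CdCl and control cells, so their values are set side by side and are not separate evidence.

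The tested genes with patterns most like those of HBEGF, EGFR and ERRFI1 over the 12 arrays were found by Pearson correlation, as a description in which the arrays of a group share their condition. SH3BP4 (0.992), ADAMTS12 (0.990) and MRPL18 (0.988) were most like HBEGF. ADAMTS12, for example, averaged 8.04 in CdCl and 6.91 in control cells at 12 h, and 7.05 and 6.15 at 48 h. MDM4 (0.983), TMEM39A (0.981) and EBLN3P (0.981) were most like EGFR, and HSD17B7 (0.977), NEDD4 (0.972) and PPP1R15B (0.969) were most like ERRFI1. Among the 8 genes themselves, ERRFI1 correlated at 0.864 with EREG and at -0.845 with ERBB2, and EGFR at -0.916 with SPRY4.

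The rest of the pathway was read from 7 lists with 85 genes, of which 60 were tested. At 12 h, 13 of the 60 rose and 18 fell, against 16.7% and 39.7% of all genes. At 48 h 21 rose and 16 fell, against 26.5% and 28.0% of all genes. The counts of each list below are to be read beside these shares. Their medians are to be read beside the all-gene medians of -0.16 at 12 h and -0.02 at 48 h. Among the other ERBB ligands and receptor 3 of 8 were tested. NRG1, which encodes neuregulin, a ligand of ERBB3 and ERBB4, was 9.06, 9.03 and 9.13 in CdCl cells at 48 h, against 7.57, 7.39 and 7.80 in control cells, with no overlap. NRG1 was 2.80-fold higher in CdCl than in control cells at 48 h (1.49 ± 0.10, adjusted p = 2.8e-07) and at 12 h its change was 0.12 ± 0.10 (adjusted p = 0.33). Averaged over all probe sets the 48 h change was 0.25 (adjusted p = 0.032). Between 12 h and 48 h NRG1 went from 8.93 to 9.08 in CdCl cells (0.15, adjusted p = 0.23). In control cells it fell from 8.81 to 7.59 (-1.22, adjusted p = 1.2e-06). BTC, betacellulin, fell at 12 h (-0.46 ± 0.16, adjusted p = 0.029), a call that 3 settings and 4 left-out arrays removed and that became -0.27 with probe sets averaged, and rose at 48 h (0.82 ± 0.16, adjusted p = 0.001). EGF itself did not pass at either time.

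Of the ligand sheddases and their helpers 8 of 12 were tested, with 1 higher and 3 lower at 12 h and 2 higher and 1 lower at 48 h (medians -0.04 and 0.04). ADAM17, known from mouse cells as the main sheddase of HBEGF, EREG, AREG and TGFA, rose at 48 h (0.43 ± 0.08, adjusted p = 0.00078) and changed by 0.18 ± 0.08 at 12 h (adjusted p = 0.080). ADAM10, known from mouse cells as the main sheddase of EGF and betacellulin, was 11.31, 11.08 and 11.39 in CdCl cells at 48 h, against 12.12, 12.03 and 11.97 in control cells, and fell (-0.78 ± 0.08, adjusted p = 1.1e-05). Its 12 h change of -0.21 ± 0.08 (adjusted p = 0.049) was lost under 4 other settings, among them the replicate block (adjusted p = 0.071), and without any of 10 arrays. ADAM9, a further metalloprotease, rose at 12 h by 0.78 ± 0.17 (adjusted p = 0.002) and at 48 h by 0.72 ± 0.17 (adjusted p = 0.003), or by 0.26 and 0.25 averaged over all probe sets (adjusted p = 0.005 and 0.007). RHBDF1, an iRhom that escorts ADAM17, and NRDC, a peptidase that binds HBEGF, fell at 12 h, with changes of -0.45 ± 0.10 and -0.24 ± 0.07 (adjusted p = 0.003 and 0.013). Averaged over all probe sets RHBDF1 changed by -0.23 (adjusted p = 0.005). The NRDC call was lost with arrays centred, at -0.09, and without the third control array (adjusted p = 0.055).

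Of the adaptors and RAS-ERK kinases 12 of 19 were tested, with 2 higher and 5 lower at 12 h and 4 higher and 3 lower at 48 h (medians -0.18 and 0.13). The kinases that phosphorylate ERK split at 12 h. MAP2K1 rose at 12 h (0.62 ± 0.08, adjusted p = 8.2e-05) and at 48 h (0.53 ± 0.08, adjusted p = 0.00027). MAP2K2 was 8.64, 8.69 and 8.68 in CdCl cells at 12 h, against 9.21, 9.31 and 9.37 in control cells, and at 48 h it was 10.05, 9.87 and 9.69 in CdCl cells, against 9.27, 9.16 and 9.34 in control cells. It fell by 0.63 at 12 h (adjusted p = 0.00014) and rose by 0.62 at 48 h (adjusted p = 0.00014), and the difference between these effects was 1.24 ± 0.13 (adjusted p = 4.3e-05). Averaged over all probe sets its 12 h change was -0.24 (adjusted p = 0.010). HRAS rose at 48 h (0.63 ± 0.10, adjusted p = 0.00028). SOS2, a RAS activator, and ARAF, a RAF kinase, fell at 12 h, with changes of -0.56 ± 0.15 and -0.47 ± 0.10, but averaged over all probe sets their changes were -0.18 (adjusted p = 0.12) and 0.15 (adjusted p = 0.076). SOS2 also fell at 48 h (-0.50 ± 0.15, adjusted p = 0.014), which was lost when probe sets were averaged (adjusted p = 0.070) and without the second control array (0.057). With probe sets averaged, 4 genes of the list passed at 12 h.

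All 5 tested of the 9 PI3K-AKT genes passed at 12 h, 1 as higher and 4 as lower, and 3 were lower at 48 h (medians -0.40 and -0.42). Over all genes 56.4% passed at 12 h, 39.7% as lower, and 28.0% were lower at 48 h (medians -0.16 and -0.02). Averaged over all probe sets, 2 passed at 12 h, PIK3R1 as higher (0.55) and AKT1 as lower (-0.91), while AKT2, PIK3CB and PDPK1 did not. AKT1, a kinase of that branch, was 7.09, 7.04 and 6.98 in CdCl cells at 12 h, against 7.75, 8.18 and 7.89 in control cells, and fell 1.88-fold (-0.91 ± 0.13, adjusted p = 9.1e-05). AKT2 fell at 12 h (-0.70 ± 0.10, adjusted p = 0.00012) and changed by 0.08 at 48 h (adjusted p = 0.52). PIK3R1, the regulatory subunit of PI3K, rose at 12 h (0.56 ± 0.17, adjusted p = 0.014) and fell 2.47-fold at 48 h (-1.30 ± 0.17, adjusted p = 5e-05). Its 12 h call was lost without the second CdCl array (adjusted p = 0.060) or the first control array (0.051). PIK3CB, a catalytic subunit, fell at both times (-0.40 ± 0.08 and -0.45 ± 0.08), and PDPK1, which activates AKT, fell at 12 h (-0.40 ± 0.08, adjusted p = 0.001), a call lost when probe sets were averaged (-0.06, adjusted p = 0.33).

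Receptor turnover genes act on the internalised receptor, and 11 of 13 were tested, with 3 higher and 0 lower at 12 h and 4 higher and 1 lower at 48 h (medians 0.15 and 0.18). At 12 h, 6 other settings gave 5 or 6 calls, no filter gave 2, the replicate block gave 3 and leaving out 1 array gave 2 to 4, with 2 without the first or the third control array. UBASH3B (STS-1), a phosphatase that binds CBL and slows EGFR breakdown, was 9.37, 9.38 and 9.59 in CdCl cells at 12 h, against 8.30, 8.26 and 8.43 in control cells, and rose 2.17-fold (1.12 ± 0.11, adjusted p = 9.9e-06). At 48 h it rose 2.78-fold (1.47 ± 0.11, adjusted p = 8.7e-07). STAM, which sorts ubiquitinated receptors at the endosome, rose at 12 h (0.88 ± 0.14, adjusted p = 0.00026), and its partner HGS rose at 48 h (0.89 ± 0.11, adjusted p = 3.5e-05, or 0.47 with probe sets averaged). The 48 h call of STAM (0.39 ± 0.14, adjusted p = 0.035) was lost under 2 settings (adjusted p up to 0.10) and without any of 4 arrays (up to 0.14), and without the first control array at 48 h the list had 3 calls. CBL, the ubiquitin ligase of EGFR, rose at 12 h by 0.30 ± 0.11 (adjusted p = 0.028), a call that 4 of the left-out arrays removed, and SH3KBP1, an adaptor of CBL, rose at 48 h (0.47 ± 0.08, adjusted p = 0.0004, or 0.28 with probe sets averaged).

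Of the other feedback inhibitors 9 of 10 were tested, with 1 higher and 2 lower at 12 h and 3 higher and 5 lower at 48 h (medians -0.18 and -0.43). LRIG1 and LRIG2 are membrane proteins of 1 family, of which LRIG1 is known to lower ERBB receptor levels. LRIG2 and LRIG3 are counted in this list as members of that family, not as shown inhibitors of EGFR. LRIG2 was 6.01, 6.21 and 6.10 in CdCl cells at 12 h, against 7.19, 7.07 and 7.25 in control cells, and 5.94, 6.34 and 6.38 in CdCl cells at 48 h, against 7.65, 7.69 and 7.38 in control cells. LRIG2 fell 2.09-fold at 12 h (adjusted p = 2.5e-05) and 2.56-fold at 48 h (adjusted p = 3e-06), log2 changes of -1.06 and -1.35 that became -0.46 and -0.45 with probe sets averaged, both still past the threshold. LRIG1 fell by 0.70 at 12 h (adjusted p = 0.016) and by 1.31 at 48 h (adjusted p = 0.00031), and its 12 h call was lost without the third CdCl array (adjusted p = 0.071) or the second control array (0.059), either of which left 1 call in the list. The 12 h count was also 1 with no filter or with probe sets averaged, and 5 in the compared groups alone.

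SPRY1 was 3.52, 3.79 and 2.96 in CdCl cells at 48 h, against 5.67, 5.50 and 5.85 in control cells. With all CdCl arrays under 4, SPRY1 was at least 3.18-fold lower (adjusted p = 2.5e-05), taking 4 as the bound. SOCS4, a suppressor that targets EGFR, rose at 48 h (0.24 ± 0.09, adjusted p = 0.034) and at 12 h (0.23 ± 0.09, adjusted p = 0.041). Its 12 h call was lost with the replicate block (adjusted p = 0.070), with probe sets averaged (0.44, adjusted p = 0.094) and without any of 6 arrays. SPRED3, a Sprouty-related inhibitor, rose at 48 h (0.65 ± 0.15, adjusted p = 0.004).

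Genes that ERK signalling is known to induce were the last list, with 12 of 14 tested. At 12 h 5 rose and 3 fell, and at 48 h 6 rose and 3 fell (medians 0.23 and 0.43, the second 0.39 with genes under 4 set to that bound). FOSL1, an AP-1 subunit, was 6.44, 6.15 and 6.62 in CdCl cells at 12 h, against 4.22, 4.36 and 4.37 in control cells, and rose 4.25-fold (adjusted p = 1.4e-05). At 48 h it was at least 3.87-fold higher (adjusted p = 4.7e-07), with the control arrays under 4. DUSP5, a nuclear ERK phosphatase, rose 2.49-fold at 12 h (adjusted p = 9.3e-07) and 4.15-fold at 48 h (adjusted p = 2.1e-08). CCND1, cyclin D1, rose 1.74-fold at 12 h (adjusted p = 0.001) and 2.58-fold at 48 h (adjusted p = 1.9e-05).

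Members of the same list went the other way. EPHA4, an ephrin receptor, was 3.27, 3.69 and 3.97 in CdCl cells at 48 h, against 7.09, 7.43 and 6.97 in control cells, and was at least 8.95-fold lower (adjusted p = 1.2e-08). Its fitted change of -3.52 became -1.81 with probe sets averaged. At 12 h it fell by 0.66 (adjusted p = 0.004). ETV4, an ETS factor, fell by 0.78 at 12 h (adjusted p = 0.003), a call that was lost when probe sets were averaged (adjusted p = 0.069). DUSP6 averaged 10.67 ± 0.13 in CdCl and 11.72 ± 0.13 in control cells at 48 h, with no overlap, and fell by 1.04 (adjusted p = 2.2e-06). MYC fell by 0.29 at 48 h (adjusted p = 0.010). Neither DUSP6 nor MYC passed at 12 h (adjusted p = 0.086 and 0.36). The list thus did not move one way.

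**Figure D4:**
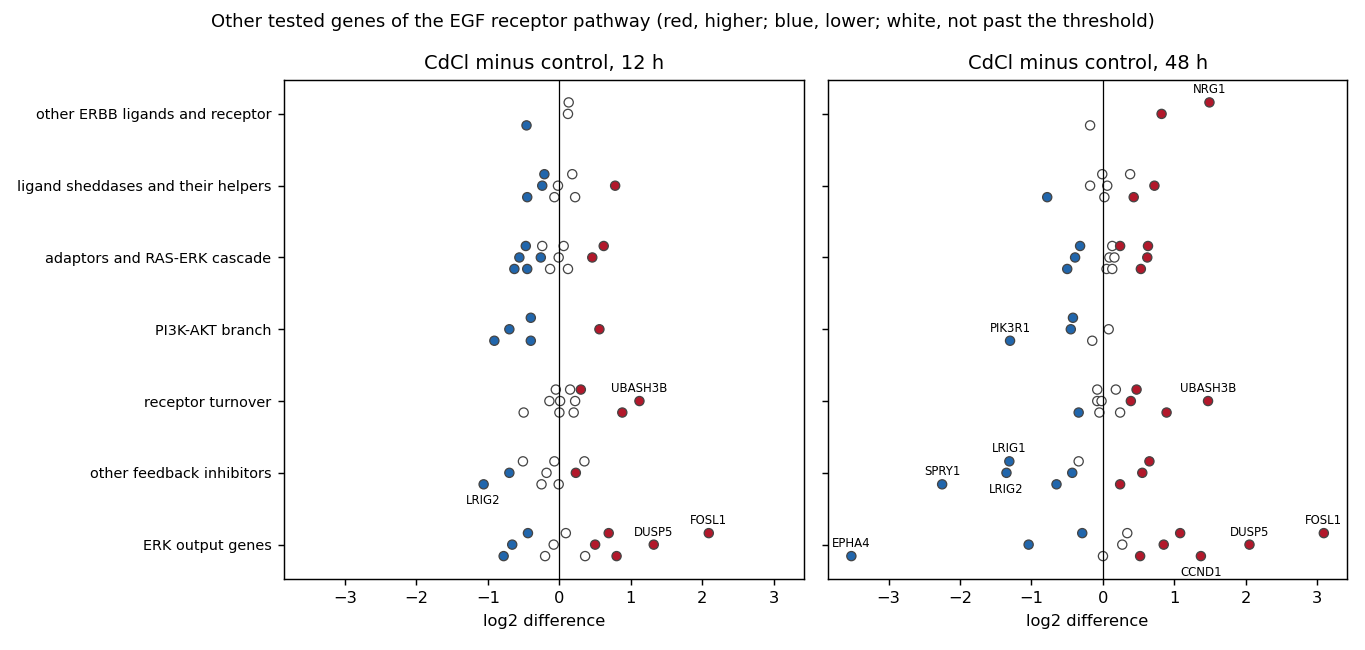
Log2 difference between CdCl and control cells (x axis) at 12 h (left) and 48 h (right) for the 60 tested genes of 7 pathway lists (y axis). Each point is a gene, red higher and blue lower at an adjusted p under 0.05, white not past it. The named genes with a change of at least 1 in size are labelled, except DUSP6. Points on both sides of 0 occur in most lists; FOSL1 at 3.09, SPRY1 at -2.25 and EPHA4 at -3.52 at 48 h are fitted values with 1 group under 4, for which the bounds are given in the text.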

How the data were processed

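Affymetrix arrays with 54675 probe sets were hybridised with labelled RNA from 12 HK-2 cultures. The authors deposited log2 values made with GCRMA, per the submitters' processing notes (background correction that uses the bases of each probe, then normalization between arrays). No version of it is named there. Weak signals are compressed near the floor, so values under 4 were not read as levels and folds against a group wholly under 4 are bounds.

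Symbols came from the platform annotation: 41091 probe sets carried 1 symbol and 1801 several. Genes were tested if a value exceeded 4 on at least 3 of 12 arrays. One limma fit (limma 3.58.1, R 4.3.3, lmFit and eBayes) of the 4 group means gave 5 two-sided comparisons, adjusted by Benjamini-Hochberg over 10683 genes with a threshold of 0.05. The fit was also run on simulated data with independent noise, in which few genes changed and only in CdCl cells at 12 h. That run cannot vouch for calls in these data, where 56.4% of all genes passed at 12 h. Changes are ± SE and levels ± SD (n = 3). The genes and lists were chosen with earlier results of these data known. All 10 genes are named, with up to 4 genes per list and CdCl comparison, those past the threshold with the largest changes, and the 3 most correlated genes for HBEGF, EGFR and ERRFI1. DUSP6 and MYC are named besides, as the other ERK output genes that fell at 48 h. Promoters came from RefSeq (GRCh38.p14), and 9 of 10 genes matched. Replicate numbers were not used as pairs.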

Additional observations from a re-analysis of the deposited data

Results flagged for a closer look

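For 6 of the 8 tested genes and 16 other genes of the pathway that are named above for the largest changes in their lists, the CdCl effect at 48 h differed from that at 12 h in the interaction test of limma (adjusted p under 0.05). DUSP6 and MYC, which are not among these 16, passed as well, at -0.85 and -0.38 (adjusted p = 0.00044 and 0.021). The share was 40.1% over all genes tested. Of the 60 tested list genes, 16 passed with a positive and 7 with a negative difference. The genes named above were picked for their CdCl changes, so their number is no result about the pathway. Among the ligands, receptors and feedback genes the differences (48 h minus 12 h, log2) were -1.60 for EREG, -0.99 for ERRFI1, 0.80 for ERBB2, -0.62 for HBEGF, 0.41 for TGFA and 0.34 for SPRY2. EREG and ERRFI1 passed at 12 h alone, TGFA and SPRY2 at 48 h alone (TGFA at 12 h too with arrays centred or probe sets averaged), and HBEGF and ERBB2 had the smaller effect at 48 h. Leaving out 1 array removed the HBEGF interaction call in 9 fits, that of SPRY2 in 8 and that of ERBB2 in 4. With arrays centred the interaction calls of ERBB2, TGFA and SPRY2 were lost.

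The effect at 48 h was above that at 12 h for NRG1 (1.37), BTC (1.28), MAP2K2 (1.24), ETV4 (1.13), HGS (1.03), FOSL1 (1.0), HRAS (0.87), AKT2 (0.78), DUSP5 (0.74), ARAF (0.61), RHBDF1 (0.51) and AKT1 (0.49). These differences are signed, so a positive value need not be a larger effect. BTC and MAP2K2 fell at 12 h and rose at 48 h. ETV4, AKT2, ARAF and RHBDF1 fell at 12 h and did not pass at 48 h, and AKT1 changed by -0.91 at 12 h and -0.42 at 48 h. The effect at 48 h was below that at 12 h for EPHA4 (-2.86), PIK3R1 (-1.86), SPRY1 (-1.74) and ADAM10 (-0.57). The adjusted p values of these 16 genes ran from 6.6e-06 for EPHA4 to 0.045 for AKT1. Values for EPHA4, SPRY1, FOSL1 and ETV4 involve a group under 4 on all of its arrays and are fitted sizes, not bounds.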

How the results depend on the processing

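The counts of genes called were compared under centred arrays, quantile normalization, no low-value filter, a filter at 5, the mean over all probe sets, the compared groups alone, another prior, the replicate block, and each array left out. Leaving out 1 array gave 4 calls at 12 h, 4 to 6 at 48 h, 3 to 5 for the interaction, 5 for time in CdCl cells and 8 for time in control cells. In the fit of all arrays 56.4%, 54.6%, 40.1%, 62.3% and 56.9% of all genes passed in these comparisons, in that order. Signs turned for SPRY2 at 12 h (0.08 with arrays centred, 0.00 with quantile normalization), ERRFI1 at 48 h (0.01 centred), the EGFR interaction (-0.02 with probe sets averaged) and ARAF at 12 h (0.15 with probe sets averaged), and the cause was not tested. Left-out arrays gave changes of -0.02 to 0.16 for EGFR at 12 h, -0.09 to 0.13 for SPRY4 at 12 h, -0.04 to 0.01 for ERRFI1 at 48 h, -0.18 to 0.15 for ERBB2 over time in CdCl cells and -0.15 to 0.06 for EREG over time in CdCl cells. Averaging probe sets called EGFR (0.23, adjusted p = 0.004) and TGFA (0.29, adjusted p = 0.010) at 12 h and put ERBB2 under the filter. With ERBB2 thus left out, 5 genes passed at 12 h as higher and 0 as lower, against 19.6% and 37.8% of all genes in that setting. SPRY4 at 48 h lost its call with no filter (adjusted p = 0.080) and in the compared groups alone (0.061), and the HBEGF interaction with no filter (0.11). The replicate block changed no call of the 8 genes, with counts of 4, 6, 6, 5 and 8. Same-numbered arrays deviated together in 3 of 18 pairs (r -0.336 to 0.158), and 4 of 12 arrays correlated best with their own number, so the numbers were not taken as pairs. Signal near the floor limits what can be said of ERBB3 and of genes under 4.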
